A study of Homo sapiens with 45 samples.

Results

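PEX10, MLLT1, PAFAH1B2, TGS1 and DCLK2 are 5 of the 41582 genes in the tables, and they are described together because each was lower in A673 cells after a hairpin against KCNN1 was switched on. A673 is an Ewing sarcoma line, and sh908 is a short hairpin RNA directed against KCNN1 that doxycycline induces. The genes were chosen on the sh908 libraries with and without the drug, so their values in that contrast are a description and carry no test. The series held 45 RNA libraries. Parental A673 and the Ewing sarcoma lines EW3, EW24, MHHES1, RDES, SKES1 and TC71 gave 3 libraries each, as did the osteosarcoma lines U2OS, SAOS2, MG63, KHOS, HOS-MNNG and G292. A673 with sh908 gave 3 libraries without doxycycline, called uninduced here, and 3 with it, called induced. All 6 sh908 libraries carried the hairpin, and no library analysed here had doxycycline without it, so the drug and the hairpin cannot be told apart. The labels name neither the dose nor the time of doxycycline, nor whether the sh908 cells were a clone, a pool or separate cultures.

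The 5 genes have no pathway in common by name. PEX10 is a peroxin, a RING-type ubiquitin ligase in the peroxisome membrane that works with PEX2 to recycle the receptor that carries enzymes into the peroxisome, and its loss causes peroxisome biogenesis disorders. MLLT1, also called ENL, is a YEATS-domain protein that reads acylated histones and belongs to the super elongation complex, and it is a fusion partner of KMT2A in leukaemia. PAFAH1B2 is a catalytic subunit of the cytosolic platelet-activating factor acetylhydrolase, whose other subunits are PAFAH1B3 and the lissencephaly protein PAFAH1B1 (LIS1). TGS1 adds methyl groups to the cap of small nuclear and small nucleolar RNAs, which turns it into the trimethylguanosine cap. DCLK2 is a microtubule-binding kinase of the doublecortin family, best known from neurons. KCNN1 encodes SK1, a potassium channel opened by calcium, and Ewing sarcoma cells carry a fusion of EWSR1 with an ETS factor, most often FLI1, which binds single GGAA cores and GGAA repeats.

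On GRCh38.p14, as RefSeq places the genes, PAFAH1B2 (gene 5049) lies at chr11:117144287-117178173 and DCLK2 (gene 166614) at chr4:150078445-150257438. RefSeq promoter windows of 300 bases, from 250 before to 50 after the start, were matched to 4 of the 5 genes. TGS1 had no matched window, so its promoter was not searched. The window of MLLT1 holds such letters after its start only and is not shown. Parts of the windows of PAFAH1B2 and DCLK2 are shown because they hold, before the start, the letters that ETS factors are known for. The first is the 250 bases of the plus strand before the start of PAFAH1B2, chr11:117144037-117144286, with each CCGGAA on either strand in capitals. The second is the last 30 bases of the plus strand before the start of DCLK2, chr4:150078415-150078444, with GGAAGGAA in capitals.
PAFAH1B2: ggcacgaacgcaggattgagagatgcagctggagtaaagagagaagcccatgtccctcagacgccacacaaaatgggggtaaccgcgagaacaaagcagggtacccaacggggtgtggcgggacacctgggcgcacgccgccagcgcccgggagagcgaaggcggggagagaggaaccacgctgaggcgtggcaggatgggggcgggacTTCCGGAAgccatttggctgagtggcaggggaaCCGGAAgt
DCLK2: tagggccgcgctccagGGAAGGAAggggcc

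The ETS core CCGGAA, searched on both strands, occurred 3 times before the start of PAFAH1B2. An overlapping pair with first bases at -41 and -39 forms the run TTCCGGAA, and the third match begins at -8. It occurred once in the window of MLLT1, at +23, and 17.2% of the 35116 windows of this length held it. The tandem GGAAGGAA stood at -14 of DCLK2 and was in 3.67% of windows. The CCAAT box (CCAAT, 34.6% of windows) was found in the window of MLLT1 and in 1 of the 2 windows each that RefSeq gave for PEX10 and KCNN1. The E-box CACGTG (7.26%) was in the window of MLLT1 and in 1 of 2 of PEX10. TATAAA (11.5%) and the cAMP response element TGACGTCA (1.85%) were in none of these windows. A match is a run of letters and not a measured binding site.

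KCNN1 (gene 3780, chr19:17951290-18000085) was itself lower with the drug. Its level, in TPM (transcript abundance scaled for transcript length and sequencing depth), was 37.8, 35.3 and 18 in uninduced libraries 1, 2 and 3 and 10.2, 13.7 and 7.75 in the induced ones. The groups did not overlap, although uninduced library 3 was far below the other two. Totals ran from 16619617 to 24818664 estimated counts in the sh908 libraries and from 15974173 to 51413254 over all 45. Over all genes, uninduced and induced libraries of the same number deviated from their group means together, with correlations of 0.683, 0.582 and 0.881. Replicates 1 and 2 were not set apart from each other by this measure (0.608 and 0.517 across their numbers), and the replicate 3 libraries of both groups deviated opposite to replicates 1 and 2 (-0.778 to -0.658). Deviations from a group mean sum to 0, so these correlations are not independent of each other. Values are given in same-numbered pairs, although this measure matched only replicate 3 to its number. Of the Ewing sarcoma markers CD99, NKX2-2, STEAP1, PRKCB and CCND1, each was at 1 TPM or more in 7 of 7 Ewing sarcoma lines, and NR0B1 was in 5 of 7. CD99, STEAP1 and CCND1 were also at that level in 6 of 6 osteosarcoma lines, NKX2-2 in 2, NR0B1 in 1 and PRKCB in 0. Of the osteosarcoma markers, COL1A1 reached that level in 6 of 6 osteosarcoma lines, RUNX2 in 5, ALPL in 4 and SP7 in 1. COL1A1 and ALPL reached it in 7 of 7 Ewing sarcoma lines too, RUNX2 in 4 and SP7 in 0, so most of these markers do not divide the types at 1 TPM.

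PEX10 (gene 5192, chr1:2403974-2413827) had, with DCLK2, the largest differences of the 5. Its level was 15.1, 17.3 and 11.6 TPM in uninduced libraries 1 to 3 and 6.33, 5.49 and 5.92 TPM in the induced ones. All 3 induced libraries were low and close together, and the lowest uninduced library was well above them. The induced level was 42%, 31.7% and 51.1% of the uninduced level in pairs 1, 2 and 3. The mean went from 14.7 ± 2.9 to 5.91 ± 0.418 TPM (SD, n = 3), a log2 difference of -1.52 in edgeR. The levels rest on 405 to 540 estimated counts per uninduced library and 182 to 231 per induced one. KCNN1 had a log2 difference of -1.53 in the same fit.

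PEX10 overlaps RER1, a Golgi sorting receptor, on chromosome 1. RER1 had 61.3, 64.7 and 43.4 TPM without doxycycline and 68.9, 70.7 and 49.3 TPM with it. It was slightly higher in each induced library than in its pair, and edgeR did not call it (log2 difference 0.19, FDR 0.385 with replicate number as a block). Whether the strand entered the assignment of reads is not given in the sources used here.

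DCLK2 was the least abundant of the genes. It stood at 2.03, 1.79 and 3.26 TPM in the uninduced libraries and at 0.849, 0.477 and 1.48 TPM in the induced ones. Library 3 was the highest of each group, and induced library 3 still lay under every uninduced library. The pairs gave 41.7%, 26.7% and 45.3% of the uninduced level, with means of 2.36 ± 0.788 and 0.934 ± 0.506 TPM (SD, n = 3) and a log2 difference of -1.37. These levels come from 81 to 173 counts per uninduced library and 25 to 81 per induced library, so the counting error is wider here than for the other 4 genes.

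MLLT1 (gene 4298, chr19:6210381-6279975) was lower by a smaller factor at a higher level. It had 45.9, 39.2 and 53.4 TPM without the drug and 23.9, 29.2 and 31.7 TPM with it. The groups were apart, and the pairs stood at 52.2%, 74.4% and 59.3%. Pair 2 moved least, since uninduced library 2 was the lowest of its group and induced library 2 was not. The means were 46.2 ± 7.12 and 28.3 ± 3.94 TPM (SD, n = 3), with a log2 difference of -0.68 from 1695 to 3131 counts per library.

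TGS1 (gene 96764, chr8:55773446-55826445) and PAFAH1B2 were lower by less still. TGS1 had 24.2, 23.4 and 29.3 TPM in uninduced libraries and 13.9, 16.6 and 19.9 TPM in induced ones, with no overlap and pairs at 57.6%, 70.7% and 67.9%. Its means were 25.7 ± 3.18 and 16.8 ± 2.98 TPM (SD, n = 3), a log2 difference of -0.59 from 958 to 1701 counts per library.

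The level of PAFAH1B2 was 24.2, 21.4 and 34.5 TPM in uninduced libraries and 16.8, 15.4 and 24.3 TPM in induced ones. The 3 pairs were almost alike, at 69.4%, 71.8% and 70.4%, but the groups overlapped, because library 3 was high in both. The means were 26.7 ± 6.92 and 18.8 ± 4.8 TPM (SD, n = 3), a log2 difference of -0.55 from 793 to 1850 counts per library. In CPM, the estimated counts scaled for depth but not for length, induced library 3 was at 53.8 and the lowest uninduced library at 58.9, so that PAFAH1B2 did not overlap on that scale.

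The groups were thus apart in TPM for 4 of the 5 genes, as they were for 1.46% of the 14252 genes tested (208 genes), and all 5 were lower in every pair, as were 21.3% of genes. Nothing can be read from either count, since the contrast chose the members. Ordered by the log2 difference with replicate number as a block, from the most negative up, PEX10 ranked 21st of 14252, DCLK2 34th, MLLT1 446th, TGS1 649th and PAFAH1B2 729th, and KCNN1 ranked 23rd. At a false discovery rate (FDR, Benjamini-Hochberg) under 0.05, edgeR without the block called 0 genes over the whole table (0.0%) and 94 had an unadjusted p under 0.05. With the block it called 73 genes in either direction (0.512%), of which 37 were lower (0.26%), and DESeq2 called 2.

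**Figure D1:**
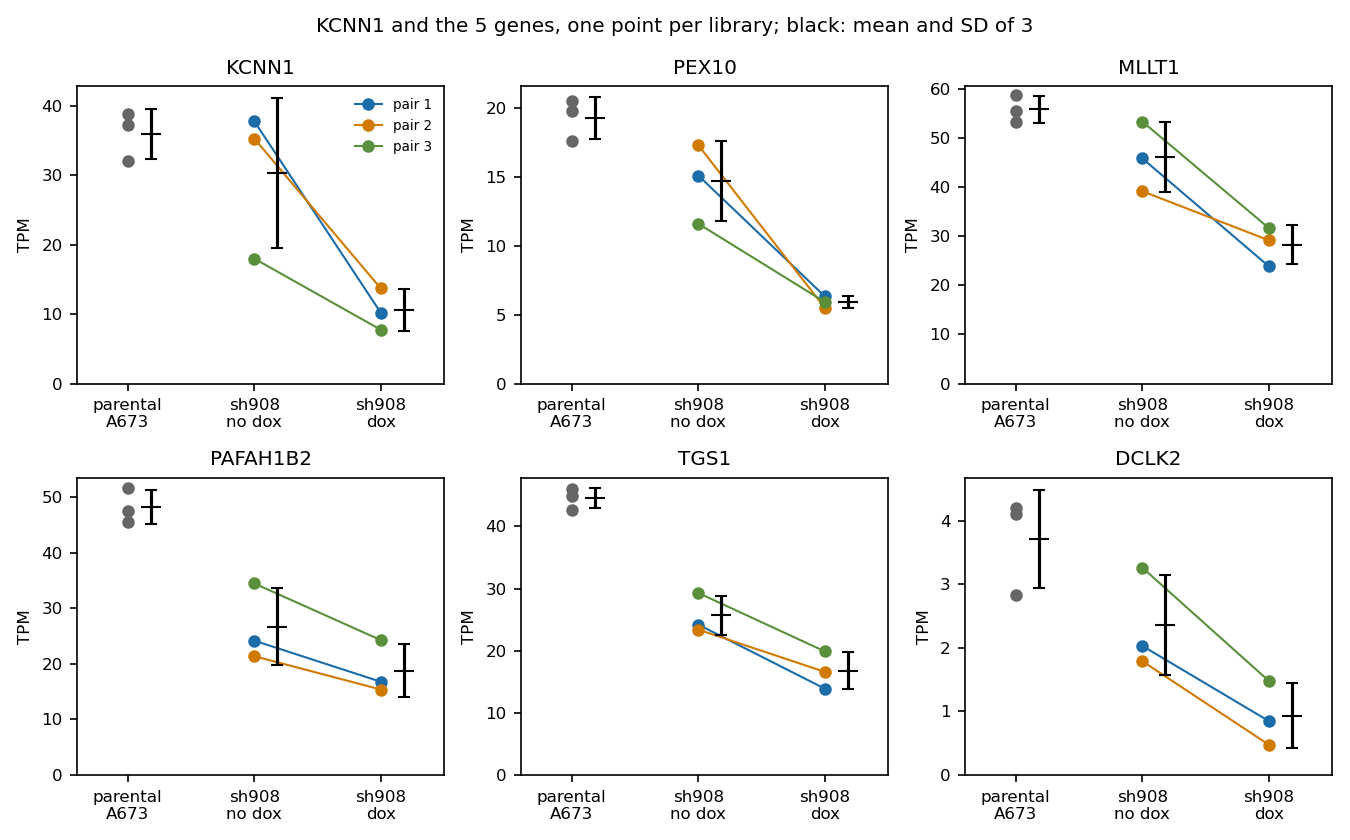
Level of KCNN1 and the 5 genes in each library (TPM, axis from 0 in each panel) for parental A673, uninduced sh908 and induced sh908, with a point per library, lines between sh908 libraries of the same number, and the mean and SD of 3 libraries in black. Induced points lie below uninduced ones in every pair, and for PAFAH1B2 induced library 3 (24.3 TPM) reaches the uninduced range (from 21.4 TPM).

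The sh908 cells already differed from parental A673 before induction. Parental libraries 1 to 3 had 51.7, 45.6 and 47.6 TPM of PAFAH1B2, 46.0, 42.7 and 44.9 TPM of TGS1, and 17.6, 19.8 and 20.5 TPM of PEX10. These 3 genes were lower in all uninduced libraries than in any parental one, as 37.1% of all genes tested were, while 8.78% lay above. Uninduced means were 55.3% of the parental mean for PAFAH1B2, 57.6% for TGS1 and 76.0% for PEX10. MLLT1 (55.5, 53.4 and 58.9 TPM in parental libraries) and DCLK2 (4.2, 4.1 and 2.83 TPM) overlapped between parental and uninduced cells, at 82.6% and 63.5%.

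The unit mattered for this comparison. In CPM the uninduced mean was 103% of the parental mean for PEX10 and 99.0% for MLLT1, 64.6% for PAFAH1B2, 68.3% for TGS1 and 74.6% for DCLK2. Among the members, PAFAH1B2 and TGS1 alone stayed below every parental library in CPM. The share of all genes that did so in CPM was not counted. Transcript length less effective length, a measure of the sequenced fragment, was 180.0 to 190.0 nucleotides in parental A673 and 140.5 to 169.0 in the sh908 libraries. The part of that difference in these levels was not tested. Induced cells were below all parental libraries in TPM for each of the 5 genes, at 30.6% of the parental mean for PEX10, 50.6% for MLLT1, 39% for PAFAH1B2, 37.7% for TGS1 and 25.2% for DCLK2. The share of all genes that lay below every parental library after induction was not counted. Nothing is read from this for the 5 genes, since they were chosen for being lower in the induced libraries.

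Single transcripts showed where the differences lay, as far as the assignment of reads to isoforms allows. That split is an estimate, and no error for it was used here. PEX10 has 8 transcripts in the tables, and NM_002617.4 (2835 nucleotides) held 91.4% ± 1.3 of the PEX10 TPM in uninduced libraries and 70.7% ± 8.08 in induced ones (SD, n = 3). It was at 13.9, 16 and 10.4 TPM without and 4.0, 4.35 and 4.12 TPM with the drug, so the induced values were again low and close together. The short model XM_011541576.3 had 14.5% ± 12.6 of the induced total (SD, n = 3).

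The leading transcript of MLLT1 was not the same in parental A673 and in uninduced sh908 cells. NM_005934.4 (4532 nucleotides) was at 29.4, 29.4 and 39.3 TPM in uninduced libraries and at 9.94, 17.4 and 11.8 TPM in induced ones, and the groups were far apart. The model XM_011528022.2 (4422 nucleotides) was at 12.9, 3.81 and 4.37 TPM and then at 11.3, 8.74 and 12.3 TPM, which overlapped. It was ahead of NM_005934.4 in induced libraries 1 and 3 and behind it in induced library 2. Another transcript, XM_047438846.1 (4406 nucleotides), was at 3.09, 5.95 and 9.66 TPM and then at 2.61, 2.96 and 6.23 TPM, lower in each pair with overlapping groups. In this estimate the lower level of the gene lay mostly in NM_005934.4, whose share went from 70.9% ± 5.94 to 46.0% ± 11.9 (SD, n = 3). In parental A673 the same transcript held 31.4% ± 4.34 and XM_011528022.2 held 58.9% ± 5.41 (SD, n = 3). The latter led in 11 of the 13 lines.

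PAFAH1B2 and TGS1 rest on 1 transcript each. NM_002572.4 of PAFAH1B2 (4175 nucleotides) was at 23.4, 20.5 and 34 TPM in uninduced and at 15.5, 14.2 and 20.3 TPM in induced libraries. For this transcript alone the groups did not overlap. The short model XM_047427045.1 (867 nucleotides) was higher, at 0.0338, 0.567 and 0.0 TPM without and 1.18, 0.89 and 2.88 TPM with the drug, from at most 30.5 estimated counts. NM_024831.8 of TGS1 (4477 nucleotides) held 93.2% ± 2.82 of the total before and 93.6% ± 1.81 after induction (SD, n = 3), at 21.8, 22.4 and 27.5 TPM and at 13, 15.8 and 18.3 TPM.

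DCLK2 has 12 transcripts in the tables, of which NM_001040260.4 (4075 nucleotides) was at 2.03, 1.79 and 2.49 TPM in uninduced and 0.126, 0.357 and 0.859 TPM in induced libraries. It led both groups by its mean, but in induced library 1 the non-coding NR_036614.2 was higher, at 0.527 TPM. That transcript was at 0.0, 0.0 and 0.179 TPM in uninduced and 0.527, 0.0883 and 0.221 TPM in induced libraries, from at most 35.1 estimated counts. NM_001040260.4 held 92.1% ± 13.7 of the uninduced total (SD, n = 3), and no induced share is given because 1 induced library had fewer than 30 counts of the gene. In parental A673 the transcript varied between 0.486 and 3.48 TPM, so the split of DCLK2 between its isoforms was uneven among libraries of 1 line.

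**Figure D2:**
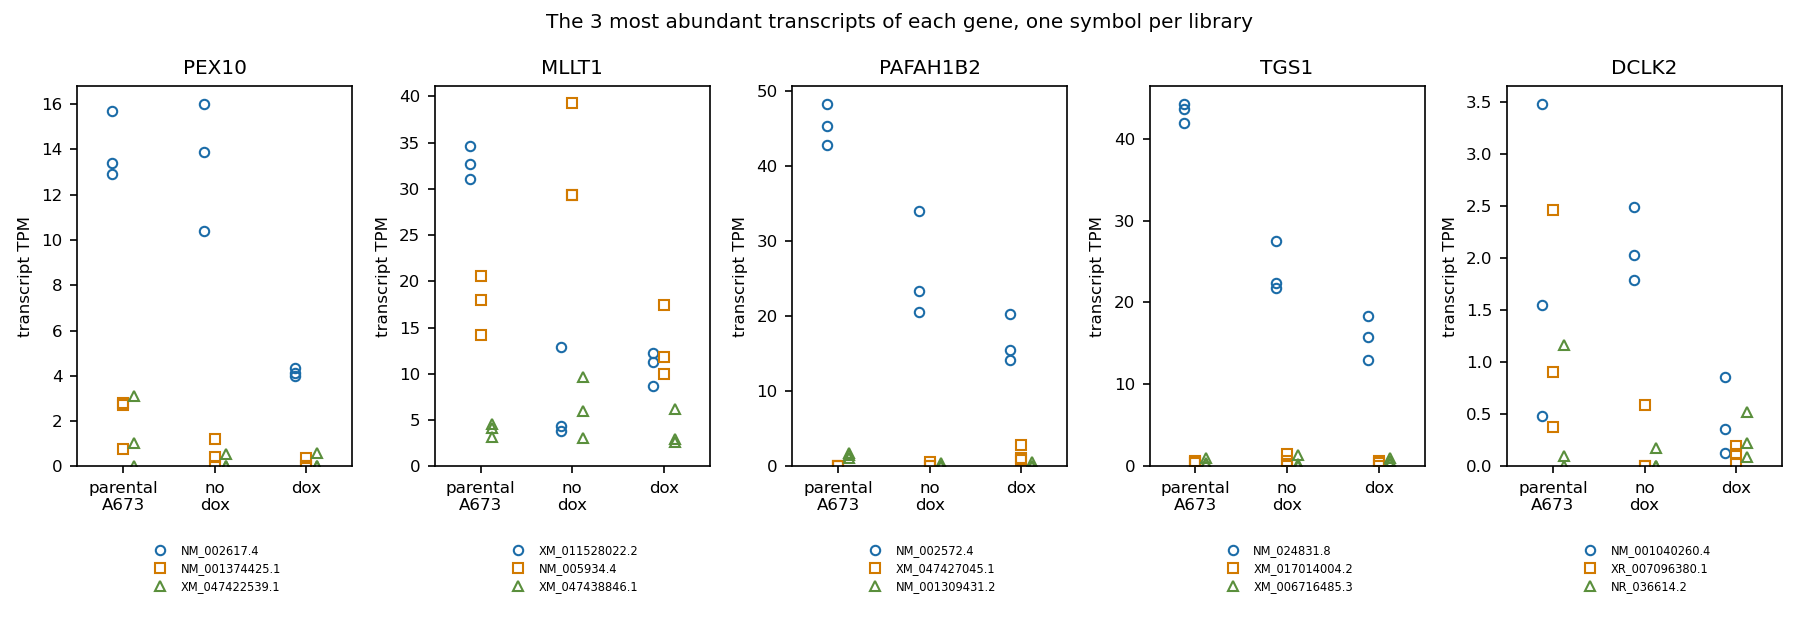
Level (TPM) of the 3 most abundant transcripts of each gene in parental A673, uninduced and induced sh908 libraries, with a symbol per library. NM_005934.4 of MLLT1 is high in uninduced libraries (29.4 to 39.3 TPM) and low in induced ones (9.94 to 17.4 TPM), while XM_011528022.2 is highest in parental A673.

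Across the 13 lines the 5 genes had 5 different orders. In bulk RNA a smaller share of expressing cells and less RNA per cell cannot be told apart. PEX10 was highest in KHOS (41.8 ± 2.38 TPM, SD, n = 3) and lowest in U2OS (9.45 ± 0.902), with EW24 at 36.3, RDES at 34, SKES1 at 33.5, SAOS2 at 26.9, EW3 at 25.5, MHHES1 at 22.3, HOS-MNNG at 21.7, TC71 at 20.7, G292 at 19.7, A673 at 19.3 and MG63 at 15.6 TPM between them. Of the 12 pairs of neighbours in that order, 8 had overlapping libraries. KHOS, MG63 and U2OS were each apart from their neighbours. The induced sh908 mean of 5.91 TPM was below every line, and in CPM it was as well (8.96 against 10.9 in U2OS).

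MLLT1 ran from 88.5 ± 6.24 TPM in G292 (SD, n = 3) to 19.3 ± 0.871 in KHOS, the line with the highest PEX10. Between them came SKES1 at 72.5, MHHES1 at 71.8, EW24 at 60.0, EW3 at 56.9, A673 at 55.9, SAOS2 at 52.2, TC71 at 49.8, RDES at 45.8, U2OS at 38.8, MG63 at 36.8 and HOS-MNNG at 31.9 TPM. Only 5 of 12 neighbouring pairs overlapped, the fewest of the 5 genes. The induced sh908 mean, 28.3 TPM, lay above that of KHOS alone, and in CPM (80.0) above KHOS and HOS-MNNG.

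PAFAH1B2 was highest in G292 as well, at 147 ± 6.68 TPM (SD, n = 3), followed by RDES at 113, MHHES1 at 107 and EW24 at 91.1 TPM. HOS-MNNG (82.2), KHOS (81.8), EW3 (60.6), SKES1 (60.4), MG63 (57.8), A673 (48.3), SAOS2 (46.0), TC71 (44.6) and U2OS (43 TPM) came below, and 8 of 12 neighbouring pairs overlapped. Both sh908 means, 26.7 and 18.8 TPM, were under the lowest line, and so were they in CPM (69.2 and 45.9 against 90.6 in SAOS2).

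TGS1 had the widest spread, 10 times from the highest line to the lowest. TC71 had 75.1 ± 18.9 TPM (SD, n = 3), RDES 59.1, EW3 58.8, MHHES1 51.6, A673 44.6, SKES1 40.6 and EW24 37.7 TPM, and the osteosarcoma lines followed with HOS-MNNG at 29.8, G292 at 24.9, KHOS at 22.8, MG63 at 20.5, U2OS at 18.9 and SAOS2 at 7.5 TPM. All 7 Ewing sarcoma lines thus stood above all 6 osteosarcoma lines. Of 12 neighbouring pairs 7 overlapped, TC71 with RDES among them, so the top of the order is not resolved. The uninduced sh908 mean, 25.7 TPM, fell inside the range of the osteosarcoma lines and the induced mean, 16.8 TPM, above SAOS2 alone. In CPM the induced mean (47.3) was above SAOS2 (15.9), U2OS (44.8) and, narrowly, MG63 (47.2).

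DCLK2 was low in every line, from 7.42 ± 1.41 TPM in SAOS2 (SD, n = 3) to 1.5 ± 0.249 in SKES1. MG63 had 4.87, U2OS 4.06, A673 3.71, EW3 3.37, HOS-MNNG 3.34, RDES 3.19, G292 3.07, EW24 2.92, MHHES1 2.26, KHOS 2.14 and TC71 1.51 TPM. Most neighbours, 10 of 12 pairs, overlapped, so the middle of this order is not resolved. The induced sh908 mean of 0.934 TPM was below every line mean, also in CPM (2.31 against 3.2 in SKES1). TC71 library 3 stood apart for 3 of the genes, with 29.6 TPM of PAFAH1B2 against 50.9 and 53.3, 53.7 TPM of TGS1 against 82.2 and 89.6, and 0.279 TPM of DCLK2 against 2.25 and 2.0.

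**Figure D3:**
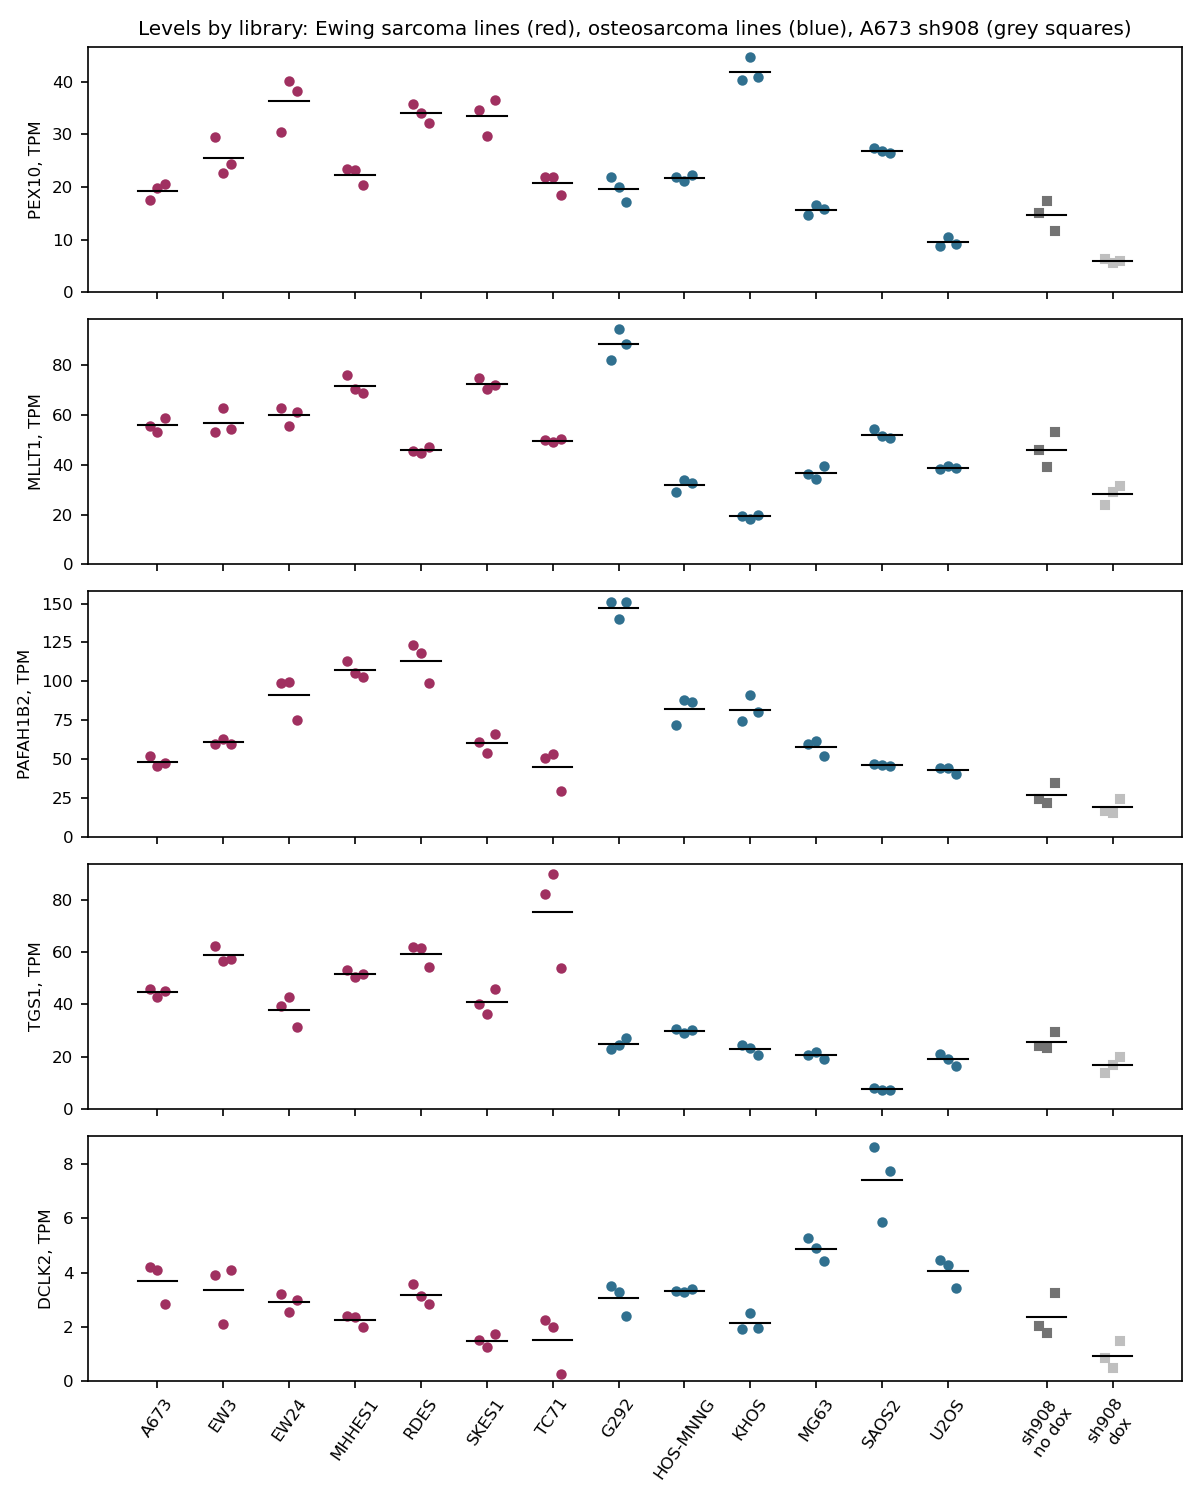
Level of each gene in the 13 parental lines (TPM, axis from 0 in each panel), with a point per library and a bar at the mean of 3, Ewing sarcoma lines in red, osteosarcoma lines in blue and sh908 libraries as grey squares. The TGS1 means of the Ewing sarcoma lines (37.7 to 75.1 TPM) lie above those of the osteosarcoma lines (7.5 to 29.8 TPM), and the other genes mix.

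The comparison of the 7 Ewing sarcoma with the 6 osteosarcoma lines did not use the libraries that chose the genes, apart from sharing A673 as the parent line. HOS-MNNG and KHOS are both derivatives of HOS, so the 6 osteosarcoma lines are not all independent. TGS1 was higher in Ewing sarcoma lines. Line means were 52.5 ± 13 TPM (SD, n = 7) against 20.7 ± 7.52 TPM (SD, n = 6), and edgeR on the summed counts of each line gave a log2 difference of 1.19 (SE 0.33, FDR 0.0283). The call was lost without TC71 (1.01, FDR 0.0508) and without U2OS (1.12, FDR 0.054), and it held without replicate 3 of every line, which drops TC71 library 3 (1.22, FDR 0.0251). The FDR over all alternatives ran from 3.58e-05 to 0.054. In this comparison 5.96% of the 22000 genes were called higher, and 3.19% had every Ewing sarcoma line above every osteosarcoma line.

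The other 4 genes were not called. PEX10 had 27.4 ± 7.06 TPM in Ewing sarcoma and 22.5 ± 11.1 TPM in osteosarcoma lines, a log2 difference of 0.12 (SE 0.34, edgeR FDR 0.852). MLLT1 had 59.0 ± 10.2 and 44.6 ± 24 TPM, a log2 difference of 0.31 (SE 0.28, edgeR FDR 0.491). PAFAH1B2 had 75 ± 28.3 and 76.4 ± 38.7 TPM, with -0.09 (SE 0.32, edgeR FDR 0.877). DCLK2 was the 1 gene with a lower mean in Ewing sarcoma beyond its SE, 2.64 ± 0.893 against 4.15 ± 1.85 TPM, with -0.74 (SE 0.34, edgeR FDR 0.165). Thus 1 of the 5 genes was called in either direction, beside 14.4% of all genes, which for 5 genes is near that background. KCNN1 was far apart, at 29.6 ± 13.6 TPM against 0.797 ± 1.75 TPM (log2 difference 5.31, SE 1.18, edgeR FDR 0.0104).

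Whether the genes follow KCNN1 over lines was described within each tumour type, since KCNN1 divides the types. KCNN1 was highest in MHHES1 (48.9 TPM) and EW3 (40.7), then A673 (36), SKES1 (27), EW24 (26.1), RDES (21) and TC71 (7.57 TPM). On log2(TPM + 1) of the 7 line means, Pearson r with KCNN1 was 0.571 for MLLT1, 0.525 for DCLK2, 0.372 for PAFAH1B2, 0.018 for PEX10 and -0.542 for TGS1. Spearman rho was 0.571, 0.286, 0.214, -0.25 and -0.321 in the same order. On log2 CPM, r was 0.203, 0.442, 0.131, -0.226 and -0.733, so that MLLT1 and PAFAH1B2 were nearer 0, PEX10 changed sign and TGS1 was more negative. The median r with KCNN1 over 16505 genes was 0.171, with quartiles at -0.14 and 0.428, and the share of genes with a higher r was 13% for MLLT1, 16.6% for DCLK2, 30.5% for PAFAH1B2, 63.2% for PEX10 and 93.6% for TGS1. TGS1 was thus near the negative end of all genes.

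No gene kept a strong relation with KCNN1 in the same direction once the extremes were left out. Without MHHES1 and TC71, the lines farthest from the median of KCNN1, r over the remaining 5 lines was 0.238 for MLLT1, 0.334 for DCLK2, -0.822 for PAFAH1B2, -0.777 for PEX10 and 0.11 for TGS1. The relations of PAFAH1B2, PEX10 and TGS1 therefore changed sign, and that of MLLT1 rests in large part on those 2 lines. TGS1, the 1 gene called higher in Ewing sarcoma, had its highest mean in TC71, the Ewing sarcoma line with the least KCNN1. Its TC71 libraries overlapped those of RDES. Computed on single libraries numbered 1, 2 and 3, r was 0.24, 0.174 and 0.83 for DCLK2, 0.259, 0.117 and 0.696 for PAFAH1B2, and -0.56, -0.671 and -0.111 for TGS1. The last value of each includes TC71 library 3, where all 3 of these genes were lower than in the other TC71 libraries. MLLT1 gave 0.551, 0.649 and 0.481, and PEX10 0.033, -0.162 and 0.158.

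In the 6 osteosarcoma lines KCNN1 was at 0.112 TPM or less except in U2OS, where it was 4.36 TPM, so r there sets U2OS against the rest. It was -0.748 for PEX10, -0.509 for PAFAH1B2, -0.029 for TGS1, -0.007 for MLLT1 and 0.058 for DCLK2, beside a median of 0.119 over all genes (quartiles -0.245 and 0.469). The KCNN1 of the 5 other lines came from 1 to 14 counts per library, and the libraries of neighbouring lines overlapped, so the order of these lines by KCNN1 is not resolved and no rank correlation is read. U2OS had the lowest PEX10 of all 13 lines. It also had the lowest PAFAH1B2 mean in TPM, where its libraries overlapped those of TC71, while in CPM SAOS2 was lower (90.6 against 94.4). Among themselves the 5 genes gave r between -0.6 (MLLT1 with TGS1) and 0.554 (PEX10 with PAFAH1B2) over the 7 Ewing sarcoma lines. Over the 6 osteosarcoma lines these r ran from -0.821 (TGS1 with DCLK2) to 0.611 (PAFAH1B2 with TGS1, against -0.208 in Ewing sarcoma lines). With 7 and 6 lines such values have a wide error, and each r uses the same libraries for both genes.

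**Figure D4:**
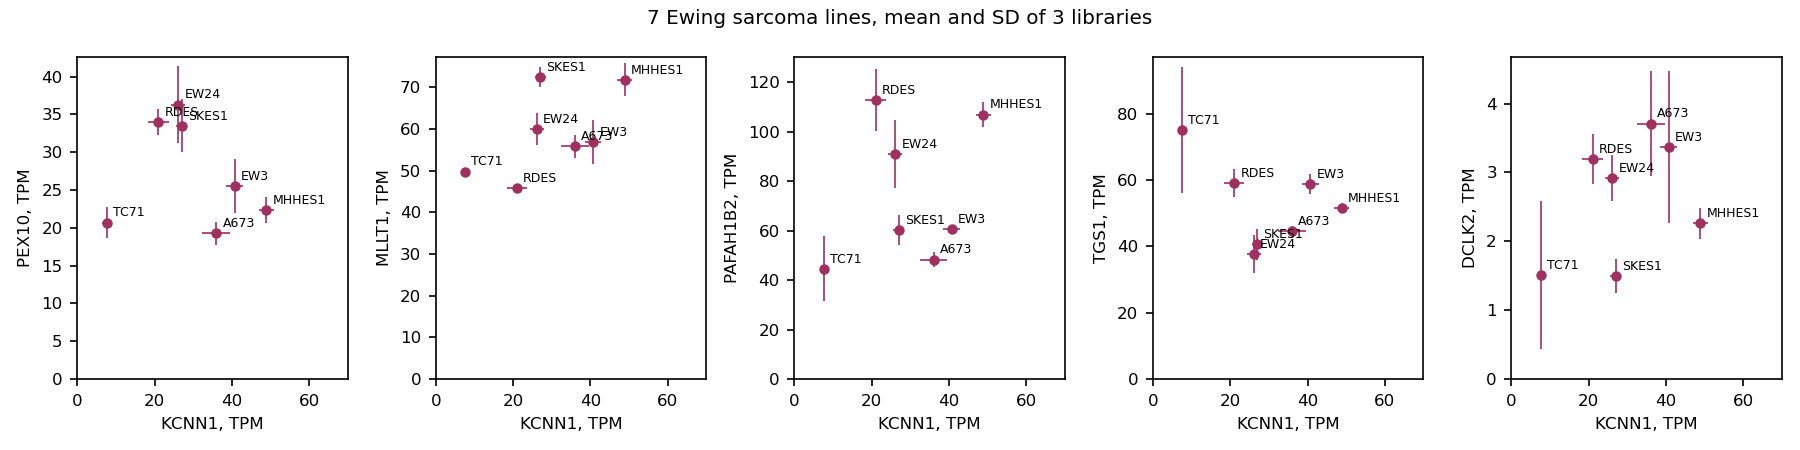
Level of each gene (vertical, TPM) against KCNN1 (horizontal, TPM) in the 7 Ewing sarcoma lines, with points at the mean and bars for the SD of 3 libraries. TC71, at 7.57 TPM of KCNN1, has the highest TGS1 mean (75.1 TPM), and MHHES1, at 48.9 TPM of KCNN1, lies at the other end of the KCNN1 axis.

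The genes with the most similar pattern over the 13 lines included several from the same chromosome. The 3 with the highest Pearson r of log2(mean TPM + 1) were taken for each gene, out of 16538 genes with a mean of at least 1 TPM. TGS1 was followed most closely by MACROH2A2 (r = 0.938), a histone variant gene, then by TMEM68 (0.927), which lies 67 bases from TGS1, and ZNF721 (0.922). MACROH2A2 had a mean of 237 TPM in Ewing sarcoma and 18.7 TPM in osteosarcoma lines. PAFAH1B2 had RNF214 (0.878), 54.5 kb away, and KDM2A (0.864) and RAD9A (0.832), both also on chromosome 11 and 49.9 and 49.7 Mb away. PEX10 had MRPL20 (0.896), 0.997 Mb away on chromosome 1, MINDY4 (0.86) and VPS72 (0.843). MLLT1 had PTPRS (0.92), 0.87 Mb away on chromosome 19, RFTN2 (0.896) and CHD3 (0.887). DCLK2 had LOC124905360 (0.95), NEDD9 (0.893) and LPP (0.883), none of them on chromosome 4. In all, 7 of the 15 lay on the same chromosome as the gene they resembled, where 3.54% to 10.5% of genes lie.

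The other genes of the same pathways were at the background with doxycycline. Of 72 further genes in 5 lists (peroxins, elongation complexes and YEATS readers, platelet-activating factor acetylhydrolases with LIS1 partners, small nuclear and nucleolar RNP assembly, doublecortin domain genes), 62 were tested. None passed in edgeR, with or without replicate number as a block, or in DESeq2, which is near the background of 0.0% and 0.512% of all genes in the edgeR fits. Only 2 of 8 doublecortin domain genes could be tested. With the block, 32 were higher and 30 lower, the median log2 difference was 0.01 beside -0.00 over all genes, 5 had an unadjusted p under 0.05, as had 1878 of all 14252 genes in that fit, and the lowest FDR was 0.14. The values ran from -0.35 to 0.39. The 5 members cannot be set against them, since they were chosen for being lower in this contrast.

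Close relatives or partners of PEX10, PAFAH1B2, MLLT1 and DCLK2 are among those not called. For TGS1, all 24 tested genes of its list were uncalled, with 11 higher and 13 lower and values from -0.17 to 0.28 in the fit with the replicate block. In edgeR without the replicate block the log2 differences of PEX2, PAFAH1B1, PAFAH1B3, MLLT3, DCLK1 and AFF1 were -0.11, -0.03, 0.03, -0.21, 0.05 and -0.34, with SEs from 0.18 to 0.67 and an FDR of 1.0 for each. The values that follow are from the fit with the block, where PEX2, a partner of PEX10 in the ligase, had a log2 difference of -0.14 (SE 0.12, edgeR FDR 0.651). PAFAH1B1 had 52.3, 49.9 and 66.4 TPM without and 49.4, 49.6 and 61.6 TPM with the drug (log2 difference -0.03, SE 0.09, edgeR FDR 0.916), and PAFAH1B3 gave 0.04 (SE 0.09, edgeR FDR 0.888). MLLT3, the paralogue of MLLT1, had -0.20 (SE 0.1, edgeR FDR 0.416). DCLK1 was at or below 0.932 TPM in all sh908 libraries, with 0.14 (SE 0.47, edgeR FDR 0.922), an SE too wide to place it beside DCLK2. AFF1, a scaffold of the elongation complex, had the lowest value of the lists, -0.35 (SE 0.11, edgeR FDR 0.209), and its levels followed library number, at 7.08, 5.06 and 27.9 TPM without and 4.54, 5.07 and 19.1 TPM with the drug.

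Between tumour types 7 of 70 tested list genes were called, 5 of them higher in Ewing sarcoma, which is near the background of 14.4% of all genes, and the count ran from 4 to 14 under the alternatives. DCDC2 was at 15.7 ± 8.63 TPM in Ewing sarcoma and 0.0944 ± 0.0486 TPM in osteosarcoma lines (log2 difference 7.35, edgeR FDR 2.38e-05), and DCX, doublecortin itself, at 4.67 ± 5.19 and 0.0684 ± 0.0973 TPM (5.99, edgeR FDR 0.0226). AFF1 (1.48), CCNT1 (0.77) and CLNS1A (0.83) were also higher in Ewing sarcoma, with edgeR FDRs of 0.0444, 0.0298 and 0.0276. ELL2, an elongation factor, was lower at 2.25 ± 1.31 against 24.5 ± 7.7 TPM (-3.53, edgeR FDR 0.000305), as was AFF3 (-3.46, edgeR FDR 0.00272). Between tumour types 21 genes were higher and 3 lower in the small nuclear and nucleolar RNP list of TGS1 (median log2 difference 0.21, beside -0.06 over all genes), of which CLNS1A alone was called. The tallies were 12 higher and 6 lower in the elongation list (0.29), 7 and 9 among peroxins (-0.04), 3 and 2 among the acetylhydrolases and LIS1 partners (0.06), and 4 and 3 in the doublecortin list (0.1). In the last, DCLK1 (-2.62, edgeR FDR 0.211) had the sign of DCLK2 (-0.74), with neither called. PEX10 and PAFAH1B2 had no list partner called, with lowest FDRs of 0.0607 and 0.0652 in their lists.

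**Figure D5:**
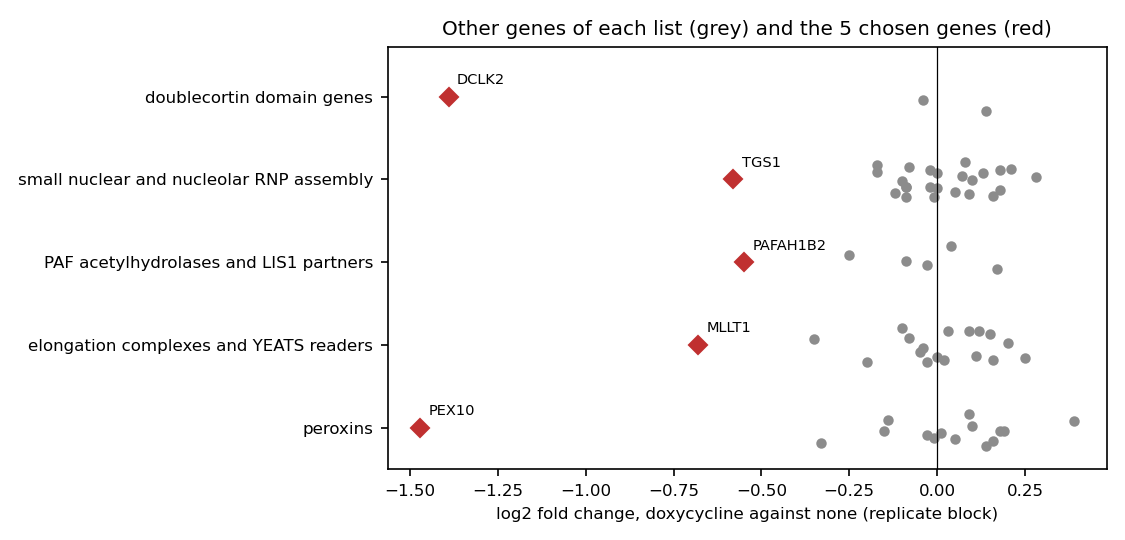
Log2 difference between induced and uninduced sh908 libraries (edgeR with replicate number as a block) for every tested gene of the 5 lists, a point per gene, with the 5 chosen genes marked. The other list genes lie between -0.35 and 0.39, and the genes chosen for being lower in this contrast between -1.47 and -0.55.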

How the data were processed

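Per the labels' protocols, poly(A) RNA (NucleoSpin RNA Plus) was made into TruSeq Stranded mRNA libraries. The submitters' processing notes name fastp 0.19.5, kallisto 0.46.2 and GRCh38.p14, with no options. The authors deposited a table per library with 177816 transcripts, holding estimated counts (expected counts, not scaled), TPM scaled for effective length and depth, and other values, the length and effective length in nucleotides, per the file headers. Transcripts were joined to RefSeq GRCh38.p14 genes by accession (169966 matched, 95.6%), and both units were summed per gene. Transcripts without a gene held 0.91% to 1.6% of a library's count.

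Summed counts were rounded, filtered with filterByExpr, scaled by TMM and fitted in edgeR 4.0.16 (quasi-likelihood, robust), with Benjamini-Hochberg FDR under 0.05 over all genes tested. A prior count of 2 was used for log2 CPM in the pairing check and the line correlations, and none was set for the fold changes. Induced and uninduced sh908 libraries were compared 3 against 3, and tumour types on the counts summed over each line's 3 libraries. Alternatives used DESeq2 1.42.0, limma 3.58.1 and a replicate block, used because the correlations of same-numbered libraries were all above 0.1. Because nothing in the labels says that libraries came from separate cultures, p-values measure only the spread between these samples. The scripts were tested on simulated counts. There DESeq2 gave more false calls at the spread between lines, so it served as an alternative only. Genes named in the text were the 5 members, KCNN1, their closest relatives, list genes called (at most 3 each way per list) and the 3 genes most like each member over lines. A relative and a marker are not reported here. RER1 and AFF1's doxycycline values were added after their values were seen. The members, lists and tests were chosen with earlier results of these data known.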

Additional observations from a re-analysis of the deposited data

Results flagged for a closer look

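KCNN1 in U2OS stood apart from the other osteosarcoma lines. Its mean was 4.36 TPM, and the next osteosarcoma line was at 0.112 TPM, a gap of 0.984 of the whole range of the 6 lines, where 0.625 is the critical value. Of 12 groups of lines examined in this way it was the only one past its critical value, and chance passes about 1 group in 20. U2OS is also the line with the lowest PEX10 (9.45 TPM) and the lowest mean of PAFAH1B2 in TPM (43 TPM; in CPM SAOS2 is lower, at 90.6 against 94.4). The r of a gene with KCNN1 over the osteosarcoma lines sets U2OS against the rest.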

How the results depend on the processing

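The count of genes called with doxycycline depended on the pairing and on single replicates. No gene was called without the replicate block (94 had an unadjusted p under 0.05), 73 with it, 48 with the block and a length offset, 7 to 167 with the block when a replicate was left out (167 without replicate 3, 7 without replicate 2, 10 without replicate 1) and 2 by DESeq2. The block left the member differences within 0.05 on the log2 scale and all list genes uncalled. All 5 genes stayed lower with doxycycline under the 17 alternatives for each. That is no support for the differences, since the genes were chosen for being lower in these same libraries. Log2(TPM + 10) shrank the differences to -0.63 for PEX10, -0.35 for PAFAH1B2 and -0.18 for DCLK2, and log2(TPM + 1) that of DCLK2 to -0.8, as a pseudocount of that size does for low genes. Between tumour types, DESeq2, which gave more false calls in the simulated counts, called 5404 genes in place of 3159. Leaving out a line or replicate in edgeR gave 2296 to 3177. List genes called went from 7 to 14 with DESeq2, 13 with the line as a random effect and 12 with that and the replicate block, and were 4 to 9 when a line or replicate was left out (4 without EW24 or without MHHES1). TGS1 was not called without TC71 or without U2OS (range over left-out lines and replicates 1.01 to 1.35). PEX10 changed sign without U2OS (-0.07, range -0.07 to 0.47). PAFAH1B2 changed sign without G292 (0.24, range -0.23 to 0.24) and was 0.02 with the line as a random effect, both with and without the replicate block. Over the Ewing sarcoma lines, r with KCNN1 without MHHES1 and TC71 was -0.777 for PEX10, 0.238 for MLLT1, -0.822 for PAFAH1B2 and 0.11 for TGS1, and on log2 CPM it was -0.226 for PEX10 and 0.203 for MLLT1. In CPM, uninduced levels were 103% (PEX10), 99.0% (MLLT1) and 68.3% (TGS1) of parental A673. The cause was not tested. DCLK2, with as few as 25 counts in an sh908 library and 20 in TC71 library 3, is the gene whose values depth limits most.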
